A study of Mus musculus with 4 samples.

Results

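The mouse genes of B cell precursors were followed in extracts of dissected middle ears. The set held 9 genes, Vpreb1, Vpreb3, Igll1, Rag1, Rag2, Dntt, Pax5, Ebf1 and Cd79a, which were taken as every probe whose RefSeq accession belongs to one of these symbols. They were covered by 12 probes of 39429, and all 9 were among the 25694 genes tested. The study compared male BALB/c mice, 6 to 10 weeks old, that had inhaled diesel exhaust particles (DEPs) for 1 h on each of 5 days with control mice. Tissue of the middle ear and the bone around it was taken on day 14. No genetic change was made in either group, and the number of mice behind an extract was not stated in the sources used here. Each of 4 arrays carried a DEP ear extract in the red dye Cy5 and a control ear extract in the green dye Cy3, as the sample labels name the sources. No array had the dyes swapped, so dye preference and exposure are confounded in every ratio and cannot be told apart. Since nothing says that the arrays hold separate animals beyond the label "biological replicate", the p-values measure the spread between these 4 arrays.

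B cells of the adult mouse are made in bone marrow. Precursors there switch on Ebf1 and Pax5, cut and rejoin their immunoglobulin heavy chain genes with Rag1 and Rag2 while Dntt adds bases at the joints, and then test the new heavy chain with a surrogate light chain made by Vpreb1 and Igll1, which sits on the cell surface with the signalling chain Cd79a. The temporal bone contains marrow, and transcripts such as Vpreb1, Igll1, Rag1, Rag2 and Dntt are scarce outside lymphocyte precursors, while Ebf1 is also used by fat, stromal and some nerve cells.

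The sequences before the start sites of 4 member genes, and of the copy Vpreb2, are shown because these genes shared the pattern over the arrays described below and each window holds the E box CAGGTG, a site that E proteins such as E2A can bind. They are the 250 bases before each RefSeq start in build GRCm38.p6, written along the gene's own strand, with CAGGTG or its reverse complement in capitals. The windows are chr16:16869256-16869505 (minus strand) for Vpreb1, chr16:17980315-17980564 (plus strand) for Vpreb2, chr16:16863986-16864235 (minus strand) for Igll1, chr2:101649533-101649782 (minus strand) for Rag1 and chr7:24897247-24897496 (plus strand) for Cd79a.
Vpreb1: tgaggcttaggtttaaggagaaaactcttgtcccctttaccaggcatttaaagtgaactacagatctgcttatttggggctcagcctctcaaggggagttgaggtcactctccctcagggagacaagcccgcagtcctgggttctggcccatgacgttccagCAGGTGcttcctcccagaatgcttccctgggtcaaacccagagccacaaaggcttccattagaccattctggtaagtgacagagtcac
Vpreb2: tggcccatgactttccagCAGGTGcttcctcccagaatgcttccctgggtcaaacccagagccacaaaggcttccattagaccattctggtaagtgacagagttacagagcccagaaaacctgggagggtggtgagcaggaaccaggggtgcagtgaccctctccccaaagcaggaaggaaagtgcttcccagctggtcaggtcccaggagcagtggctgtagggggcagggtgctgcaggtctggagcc
Igll1: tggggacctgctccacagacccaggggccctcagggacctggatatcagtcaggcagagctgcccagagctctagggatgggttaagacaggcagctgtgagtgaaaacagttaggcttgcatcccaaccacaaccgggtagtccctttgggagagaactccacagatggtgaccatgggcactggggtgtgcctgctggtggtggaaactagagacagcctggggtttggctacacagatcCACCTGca
Rag1: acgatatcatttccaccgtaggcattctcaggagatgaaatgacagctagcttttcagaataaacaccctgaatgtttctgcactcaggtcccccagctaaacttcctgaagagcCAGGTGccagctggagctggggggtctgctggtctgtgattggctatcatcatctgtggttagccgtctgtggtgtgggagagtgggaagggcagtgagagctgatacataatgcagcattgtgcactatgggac
Cd79a: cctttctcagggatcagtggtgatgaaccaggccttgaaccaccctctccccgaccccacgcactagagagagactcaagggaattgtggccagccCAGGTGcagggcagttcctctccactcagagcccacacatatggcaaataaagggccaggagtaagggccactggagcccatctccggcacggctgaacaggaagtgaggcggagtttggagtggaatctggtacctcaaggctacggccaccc

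The E box lay 88 bases before the start in Vpreb1, 8 in Igll1, 135 in Rag1 and 154 in Cd79a. On either strand it occurred in the windows of 4 of the 9 member genes (4 of their 10 windows) and in 17.2% of 32851 mouse promoter windows. The windows of Vpreb3, Rag2, Dntt and Ebf1, which shared the pattern over the arrays too, held no CAGGTG. A part of the E box in the ratios was not tested. The letters GAGGAA, the core that PU.1 binds, were found in the windows of 4 member genes (Vpreb1, Rag2, Ebf1 and Cd79a) against 23.3% of all windows. The octamer ATGCAAAT was found 45 bases before the start of Vpreb3 alone among the members, against 1.6% of all windows. The half-site pair CCCNNGGG of Ebf1 was found in the window of Igll1 alone (11.8% of all windows), TGGGAA in those of Rag1 and Ebf1 (21.6%) and the TATA box TATAAA in none (12.4%). Both strands were searched, and these matches are letters in a window and not measured sites. Vpreb1 and Igll1 are neighbours, with 4970 bases between their RefSeq windows, which run to 300 bases with the first bases of the gene, on chromosome 16. Vpreb2 lies on the same chromosome, and 156 bases of its full window match those of Vpreb1 at a shift of 144, with 153 identical (98.1%). The rest of the windows was not matched.

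The arrays did not give alike ratios. Over the probes of a pair of arrays, whose values are not independent of each other, Pearson's r ran from 0.61 for arrays 1 and 2 down to -0.22 for arrays 1 and 4, and the SD of the log2 ratios was 0.97 on array 1 against 0.62 to 0.68 on the others. Array 1 thus had the widest ratios and array 4 correlated least with the others, and the members' means are also given with single arrays left out. In the channel labelled control fewer probes were well above background on arrays 3 and 4, at 59.2% and 60.3%. The shares were 66.7% to 68.0% in Cy3 on arrays 1 and 2, and 65.4% to 68.9% in Cy5.

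Transcripts of B cell precursors were clearly present in the ears of both groups. "Measured in full" is used for a gene whose brightest probe stood well above background in both dyes on each array. For 8 of the 9 genes the brightest probe stood well above background in every extract, and for Rag2 it did so in 4 Cy5 and 3 Cy3 extracts. Ratios are given as log2 of Cy5 (labelled DEP) over Cy3 (labelled control). For most genes that the study's text names with a direction, this gives the opposite sign, while Cd4 (-0.10) kept the sign. Most of the opposite genes lay at background in some extracts. Esr1 (0.46 here, lower in the study) was well above it in 4 Cy5 and 4 Cy3 extracts. Ifna1 (0.74) and Sos1 (1.06), also lower in the study, were so in 4 Cy5 extracts but in only 2 and 1 Cy3 extracts. No member gene passed the test. In limma's moderated test with Benjamini-Hochberg adjustment over all probes, 0 of the 9 genes had an adjusted p under 0.05, as had 0.00% of all genes, and an ordinary test without moderation also gave 0. At an unadjusted p under 0.05 there was 1 member gene, Pax5, against 18.7% of all genes. No member had a mean ratio past 2-fold, whereas 2.37% of all genes were past it on the higher side and 4.37% on the lower. The mean ratio was above 0 for 7 of the 9 genes, against 54.2% of all genes, and the median over the members was 0.26, beside 0.03 over all genes. Had the channels been exchanged, every sign in the text would turn, with 2 of the 9 genes above 0, a median of -0.26 and the higher and lower shares swapped. With 4 ratios, an exact sign-flip test could not have given a p below 0.125.

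The members varied widely over the arrays, and most shared the signs of their ratios. Other marrow genes described below shared them too, as did genes outside the lists used here. The ratio was below 0 on array 1 for all 9 genes, and above 0 on arrays 3 and 4 for all but Pax5. This sign pattern, which was chosen after the values were seen, was shown by 8 of the 9 members and by 16.4% of all genes. Over the 8 genes measured in full, the median log2 ratio was -0.63, 0.06, 0.70 and 0.61 on arrays 1 to 4. With another background correction (normexp) followed by loess, these medians were -0.55, -0.0035, 0.58 and 0.53, so that array 2 changed sign, and with centring on the median they were -0.38, 0.13, 1.16 and 0.89. Over all genes, the median of the mean ratios went from 0.03 to 0.11 under this centring. The SD over the arrays had a median of 0.64 for these 8 genes, against a median of 0.28 and an upper quartile of 0.47 over the 18347 genes measured as fully.

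**Figure D1:**
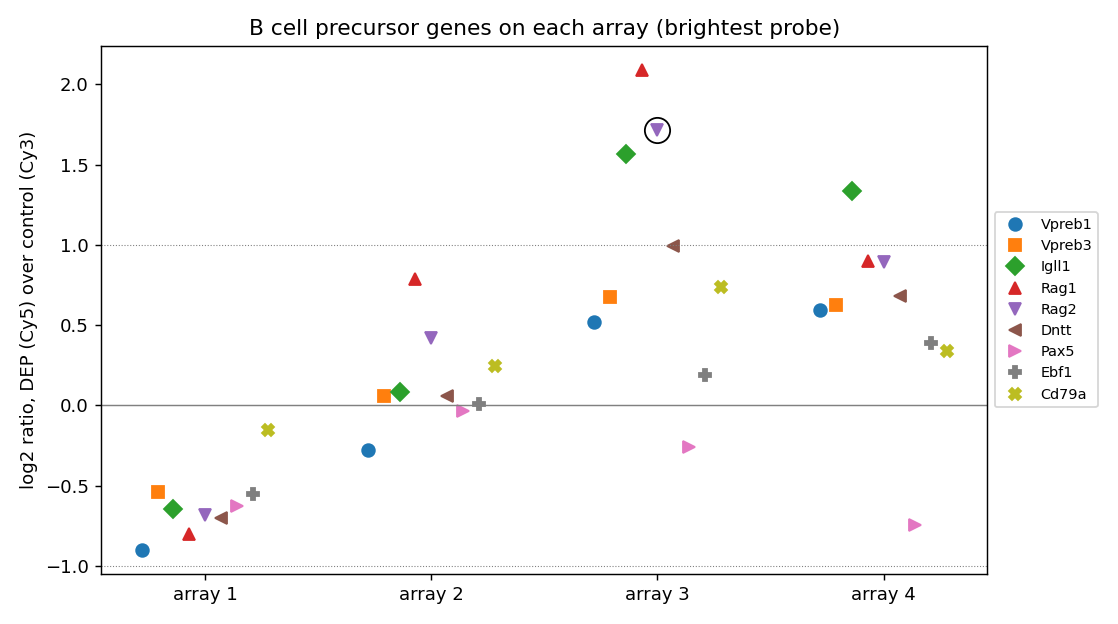
Log2 ratio of Cy5 (labelled DEP) over Cy3 (labelled control) for the brightest probe of each of the 9 genes on each of the 4 arrays. Dotted lines mark 2-fold and the circle marks a ratio with Cy3 not well above background. Points of all 9 genes lie below 0 on array 1, and all but Pax5 lie above 0 on arrays 3 and 4.

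Among the surrogate light chain genes, Vpreb1 encodes the part that takes the place of a variable domain. Its processed signals in the channel labelled DEP were 2136, 3616, 2757 and 3708 on arrays 1 to 4, and in the channel labelled control they were 3984, 4379.9, 1921 and 2457. The DEP channel was the lower one on arrays 1 and 2 and the higher one on arrays 3 and 4, and the ranges of the channels overlapped. The mean log2 ratio was -0.02 ± 0.71 (SD, n = 4 arrays; adjusted p = 0.98 from limma), with a 95% confidence interval from -0.77 to 0.74, and it was 0.28 without array 1, -0.19 without array 3 and -0.22 without array 4. The probe for Vpreb2 gave ratios of -0.69, -0.24, 0.57 and 0.58 on arrays 1 to 4, beside -0.90, -0.28, 0.52 and 0.59 for Vpreb1. Since the genes are near copies, each transcript may bind to the other's probe, and their values are uncertain as separate measurements.

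Igll1 encodes lambda5, the constant part of the surrogate light chain. Its signals were 513, 946, 791 and 1017 in the channel labelled DEP and 802, 892, 268 and 403 in the channel labelled control on arrays 1 to 4. The control signal was highest on array 2 and lowest on array 3, and the DEP signal was lowest on array 1. The log2 ratios were -0.64, 0.08, 1.56 and 1.34, with a mean of 0.58 ± 1.05 (SD, n = 4 arrays; adjusted p = 0.482 from limma). Without array 1 the mean was 0.99 (unadjusted p = 0.0468 and adjusted p = 0.276 from limma on 3 arrays), and it was 0.26 without array 3 and 0.33 without array 4.

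Vpreb3 encodes a protein of the B cell endoplasmic reticulum that is related to Vpreb1. Its signals were 11625, 15426, 10853 and 14782 in the channel labelled DEP and 16905, 14791, 6807 and 9568 in the channel labelled control. The control channel was the brighter one on array 1 only, and the ranges overlapped. The ratios were -0.54, 0.06, 0.67 and 0.63 on arrays 1 to 4, and their mean was 0.21 ± 0.57 (SD, n = 4 arrays; adjusted p = 0.662 from limma). The mean was 0.45 without array 1, 0.05 without array 3 and 0.06 without array 4. With median centring it was 0.74, with an unadjusted p of 0.03 and an adjusted p of 0.107 in limma's test. Over the 4 arrays, Vpreb3 lay closest of the members to their median, at a root mean square difference of 0.05.

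Rag1 had the largest mean ratio of the members and did not pass the test, and with median centring Vpreb3 (0.74) and Igll1 (0.69) were above it (0.61). Rag1, which with Rag2 forms the enzyme that cuts at recombination signals, had signals of 204, 488, 353 and 370.1 in the channel labelled DEP and of 356, 283, 82.9 and 199 in the channel labelled control. The control signal of array 3 was the lowest of the 8, and array 1 was the only array on which the control channel was the brighter one. Its log2 ratios of -0.80, 0.79, 2.09 and 0.90 gave a mean of 0.74 ± 1.19 (SD, n = 4 arrays; adjusted p = 0.434 from limma), or 1.67-fold, with a 95% confidence interval from -0.47 to 1.96. The mean without array 1 was 1.26, past 2-fold (unadjusted p = 0.0174 and adjusted p = 0.225 from limma on 3 arrays), and it was 0.29 without array 3 and 0.47 with normexp and loess. A second probe for Rag1 had signals from 7.88 to 24.3, none of them well above background, and no fold is given from it.

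Rag2, the partner of Rag1 in that enzyme, had signals of 101, 161, 128 and 155 in the channel labelled DEP and of 162, 120.4, 38.9 and 83.1 in the channel labelled control, of which that of 38.9 on array 3 was not well above background. Its order over the arrays was that of Rag1. The mean ratio was 0.59 ± 1.00 (SD, n = 4 arrays; adjusted p = 0.465 from limma) 1.01 without array 1 and 0.21 without array 3. These values with array 3 use the spot at background and are not exact, and with normexp and loess the mean was 0.22. The other probe for Rag2, printed as 10 spots per array, had signals from 5.50 to 9.43, none of them well above background.

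Dntt, the polymerase that adds bases without a template, had signals of 1299, 2012, 1638 and 2110.1 in the channel labelled DEP. Its signals in the channel labelled control were 2111, 1935, 823 and 1318. The DEP channel was lower on array 1, nearly level on array 2 and higher on arrays 3 and 4. Ratios of -0.70, 0.06, 0.99 and 0.68 gave a mean of 0.26 ± 0.75 (SD, n = 4 arrays; adjusted p = 0.665 from limma), and the mean was 0.58 without array 1, 0.01 without array 3 and 0.12 without array 4. It was 0.15 with normexp and loess and 0.50 with median centring.

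Of the transcription factors, Pax5 alone lacked the sign pattern. Pax5, which commits precursors to the B lineage, had low signals of 51.3, 44.2, 52.2 and 37.1 in the channel labelled DEP and of 79.0, 45.3, 62.5 and 62.3 in the channel labelled control. Pax5 was the only member whose DEP signal was the lower one on 4 of 4 arrays. The ratios of -0.62, -0.03, -0.26 and -0.75 had a mean of -0.42 ± 0.33 (SD, n = 4 arrays; unadjusted p = 0.0486 and adjusted p = 0.266 from limma). Without array 1 the unadjusted p was 0.134 in limma's test, and with normexp and loess the mean was -0.15. With median centring it was -0.22, with an unadjusted p of 0.0706 in limma's test. A second probe for Pax5 gave the opposite sign, with ratios of -0.53, 0.88, 1.02 and 1.04, but only 1 of its 8 signals was well above background, and no fold is given.

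Ebf1, which acts before Pax5, had signals of 1591, 1773, 1649 and 1699 in the channel labelled DEP. In the channel labelled control they were 2331, 1763, 1444 and 1299. The ranges overlapped, and after the centring described below the DEP level had an SD of 0.35 over the arrays and the control level one of 0.086. The ratios were -0.55, 0.01, 0.19 and 0.39, with a mean of 0.01 ± 0.40 (SD, n = 4 arrays; adjusted p = 0.982 from limma) and a 95% confidence interval from -0.47 to 0.48. The sign of this mean turned with single arrays left out, to -0.05 without array 3 and -0.12 without array 4, and the mean was 0.20 without array 1 and 0.38 with median centring.

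Cd79a, the signalling chain that stays on the cell from the precursor to the mature B cell, had signals of 291, 301, 225 and 224 in the channel labelled DEP and of 324, 255, 135 and 177 in the channel labelled control. Its ratios of -0.16, 0.24, 0.74 and 0.34 included the one closest to 0 among the members on array 1. Their mean was 0.29 ± 0.37 (SD, n = 4 arrays; adjusted p = 0.407 from limma), and 0.44 without array 1 (unadjusted p = 0.045 and adjusted p = 0.273 from limma on 3 arrays), and it was 0.14 without array 3 and 0.12 with normexp and loess. Leaving out array 1 raised the median over the 9 genes to 0.45, put 2 genes (Rag1 and Rag2, the latter with its array 3 control spot at background) past 2-fold and gave 4 genes (Igll1, Rag1, Rag2 and Cd79a) an unadjusted p under 0.05, with 0 genes at an adjusted p under 0.05 in limma's test. Of all genes, 2.25% were past 2-fold on the higher side and 17.9% had an unadjusted p under 0.05 without array 1. Leaving out array 3 lowered the median to 0.05, with 0 member genes at an unadjusted p under 0.05 against 12.0% of all genes.

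**Figure D2:**
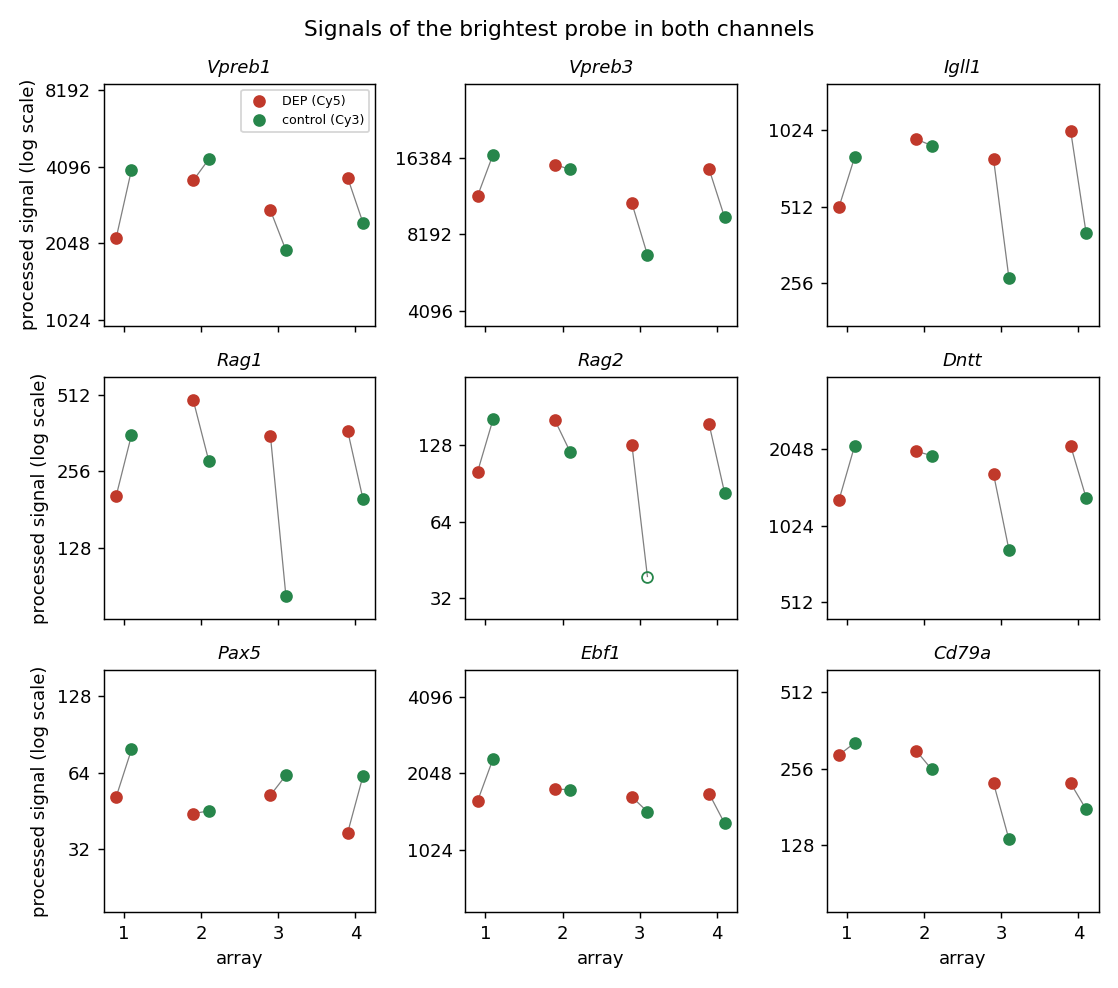
Processed signals of the brightest probe of each gene on a log scale, in the channel labelled DEP (red) and the channel labelled control (green) of each array, with grey lines joining the channels of an array. Open points were not well above background. The ranges of the channels overlapped for all 9 genes, and the control signal of Rag1 was 356 on array 1 and 82.9 on array 3. Signals are not centred between arrays, and the centred control levels of Rag1 on these 2 arrays were -1.39 and -2.84.

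The levels of each channel were set against the median of 22394 probes measured in full, which allows arrays to be compared with each other. In the channel labelled DEP all 9 genes had their lowest level on array 1, with a median of -0.55 from each gene's own mean over the 8 extracts on the log2 scale. In the channel labelled control 7 of the 9 genes had their lowest level on array 3, with a median of -0.62, and the exceptions were Pax5 (lowest on array 2) and Ebf1 (lowest on array 4). The extremes on array 3 were Rag1 at -1.44, Rag2 at -1.28 and Igll1 at -1.06, whereas Ebf1 lay at 0.0022. The value of Rag2 came from a spot not well above background and is not exact. On array 4, where most ratios were also above 0, the members' median distance from their own mean was 0.54 for the DEP extract and -0.13 for the control extract. In whole tissue, fewer precursor cells and less RNA per cell cannot be told apart.

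**Figure D3:**
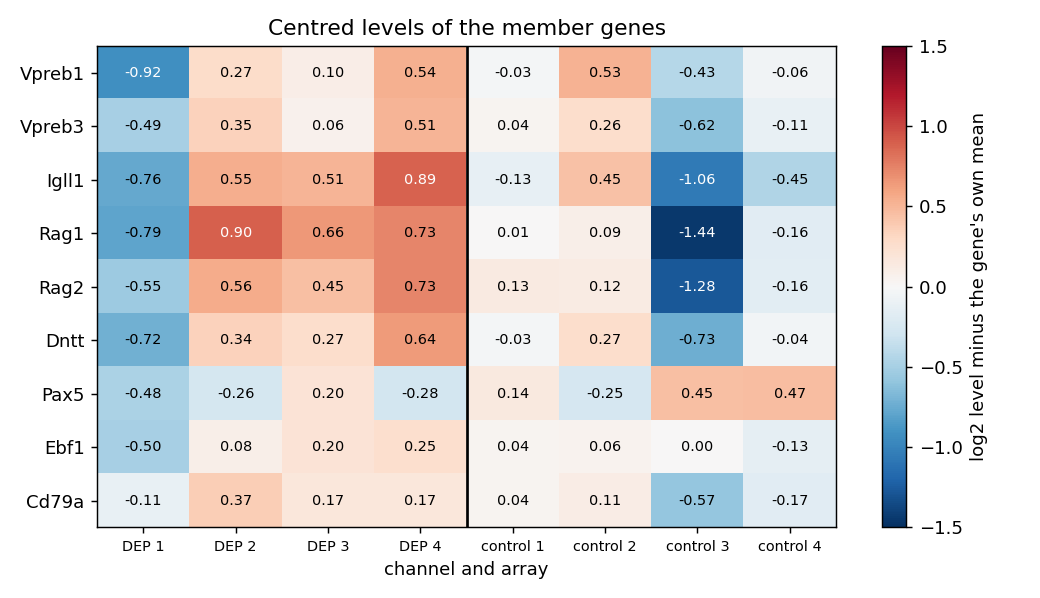
Log2 level of each gene's brightest probe in each channel of each array, after centring on the channel's median probe and subtracting the gene's own mean over the 8 values, with blue for lower and red for higher. The DEP extract of array 1 was the lowest of the DEP extracts for all 9 genes, and the control extract of array 3 was the lowest of the control extracts for 7.

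Other genes of early B cells also had their lowest median on array 1 and their highest on array 3. Of 28 further genes of the lineage, chosen for their role and including receptors, kinases and transcription factors, all were tested and 26 were measured in full. The medians of these 26 genes were -0.41, 0.18, 0.41 and 0.14 on arrays 1 to 4. The sign pattern of the members was shown by 17 of the 28 genes, among them Pou2af1, a coactivator of B cells, with ratios of -0.57, 0.13, 0.90 and 0.69. None was past 2-fold by its mean, 3 had an unadjusted p under 0.05 and 0 an adjusted p under 0.05 in limma's test. The largest mean ratios among genes measured in full were those of Btk, a kinase of B cell receptor signalling, at -0.53 ± 0.40 (SD, n = 4 arrays; adjusted p = 0.242 from limma), Flt3, a receptor of early progenitors, at -0.49 ± 0.52, and Sox4, a transcription factor of early lymphocytes, at -0.45 ± 0.32.

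The genes that repair the cuts made by Rag1 and Rag2 had medians near 0, with single genes on either side. For 12 genes of end joining, all measured in full, the medians were -0.13, 0.11, 0.03 and 0.05 on arrays 1 to 4, 4 of 12 showed the sign pattern, and 2 (Hmgb1 and Poll) had an unadjusted p under 0.05. Hmgb1, a helper of the recombinase that is abundant in most cells, averaged -0.37 ± 0.24 on the log2 scale (SD, n = 4 arrays; adjusted p = 0.256 from limma). The polymerase gene Poll averaged -0.29 ± 0.03 (adjusted p = 0.238 from limma), and Nhej1, which helps the ligase, averaged 0.27 ± 0.38. Of 6 niche factors that support precursors, 4 were measured in full, with medians of -0.44, 0.08, 0.21 and 0.40, 2 (Cxcl12 and Vcam1) showed the sign pattern, and 2 of the 6 had an unadjusted p under 0.05. Cxcl12, which holds them in marrow, had ratios of -0.34, 0.49, 1.01 and 0.95 (mean 0.53, adjusted p = 0.339 from limma), and the adhesion molecule Vcam1 had -0.67, 0.15, 0.89 and 0.89. The growth factor gene Kitl had ratios below 0 on 4 of 4 arrays, at -0.44 ± 0.18 (adjusted p = 0.191 from limma). Il7, of the same list, had ratios above 0 on 4 of 4 arrays, but in Cy3 it was well above background on only 1 array.

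Markers of granulocyte precursors had medians in the members' order over the arrays, and erythroid and proliferation genes were likewise lowest on array 1 and highest on array 3. For 12 genes of granulocyte precursors, all measured in full, the medians were -0.84, -0.03, 0.67 and 0.38 on arrays 1 to 4, and 11 of 12 showed the sign pattern, with the lactoferrin gene Ltf as the exception (mean -0.65). The transcription factor gene Cebpe (0.50) and the calcium-binding S100a9 (0.34) had the next largest mean ratios. The median of this list on array 2 turned from -0.03 to 0.03 with normexp and loess and to 0.37 with median centring. Their summed signal ranged from 344814 to 518105 in the channel labelled DEP and from 276264 to 775649 in the channel labelled control. Sums here and below are of signals not centred between arrays, so their ranges include differences in array brightness. For 10 erythroid genes, all measured in full, the medians were -0.78, 0.38, 0.44 and 0.18, 7 of 10 showed the pattern, and the largest mean ratios were those of Hba-a1 (0.53), Slc4a1 (-0.38) and Car1 (0.32). The summed signal of these ranged from 232826 to 288843 and from 140980 to 371898, in the same order of channels. For 6 genes of proliferation, all measured in full, the medians were -0.47, 0.23, 0.55 and 0.04, 3 of 6 showed the pattern, and the sums ranged from 25085 to 34290 and from 22710 to 45872, with the largest mean ratios in Mki67 (-0.51), Cdk1 (0.39) and Ccna2 (0.18). In these 3 lists 0 genes had an unadjusted or adjusted p under 0.05 in limma's test. The part of these cells in the members' ratios was not tested.

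Mature B cells and T cells did not share the order as lists. For 12 genes of mature B and plasma cells, of which 9 were measured in full, the medians of the 9 were 0.10, 0.39, 0.58 and 0.06, and 3 of 12 showed the pattern. Of the 12 genes, 4 had an unadjusted p under 0.05. Listed for plasma cells, Prdm1 (1.15 ± 1.37) and Sdc1 (0.69 ± 2.05) had the largest mean ratios. These rested on array 1, with ratios of 2.97 and 3.31, and without it the means were 0.55 and -0.19. Jchain and Xbp1, also of this list, had ratios of -0.08 and 0.10 on array 1. Among those with the pattern was Ms4a1, the CD20 gene of mature B cells, with ratios of -0.41, 0.67, 1.07 and 0.73. The summed signal of the 9 genes ranged from 18927 to 38061 in the channel labelled DEP and from 21680 to 28742 in the channel labelled control. Since Rag1, Rag2 and Dntt are also used by T cell precursors, the T lineage was read as well. For 11 of its 12 genes with ratios, 8 of them measured in full, the medians of the 8 were 0.17, 0.25, 0.02 and 0.02, 2 of 11 showed the pattern, and the summed signal ranged from 4455 to 7613 and from 4355 to 6636. Of the 11 genes, 1 had an unadjusted p under 0.05. Among the 8 measured in full, the largest mean ratios were those of Bcl11b (0.82 ± 1.81, but 0.09 without array 1), Cd3d (0.28) and Cd8b1 (0.22). The medians on arrays 3 and 4 turned to -0.04 and -0.02 with normexp and loess. Ptcra, which marks T cell precursors, was not well above background in any extract, and neither were Cd8a and Cd247.

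Genes of neurons, by contrast, were low in the channel labelled DEP on arrays 1 to 3 and not on array 4. The medians of 8 neuronal genes measured in full were -2.40, -1.60, -0.66 and 0.33, where -0.66 became -0.13 with normexp and median centring. The sign pattern was shown by 0 of 10 genes. All 10 had a mean ratio below 0, 6 were past 2-fold and 6 had an unadjusted p under 0.05, with 0 at an adjusted p under 0.05 in limma's test. Among the 8 measured in full, Syt1 (-2.69), Gad1 (-1.76) and Stmn2 (-1.47) had the largest mean ratios, with an adjusted p of 0.164 for Syt1 in limma's test. Gabra6, not measured in full, lay lower still. The summed signal of the 8 genes ranged from 19637 to 29986 in the channel labelled DEP and from 23143 to 79676 in the channel labelled control. For 9 genes of stroma and fat, all measured in full, the medians were -0.18, 0.29, -0.20 and 0.63, and 1 of 9 showed the pattern. Of these genes, 1 had an unadjusted p under 0.05 in limma's test. The sums ranged from 242025 to 257425 and from 165784 to 346939. Lepr (-0.69), Pparg (0.62) and Adipoq (0.34) had the largest mean ratios, and that of Pparg came from ratios of 1.99, 0.79, 0.33 and -0.64 on arrays 1 to 4. The part of these tissues in the members' ratios was not tested. Under normexp with centring on the median, the medians of the members, early B lineage, granulocyte precursors, erythroid genes, proliferation genes and neurons stayed below 0 on array 1, at -0.38, -0.09, -0.17, -0.45, -0.19 and -2.02, while those of stroma and fat, niche factors and end joining turned to 0.20, 0.02 and 0.09 there, and that of stroma and fat to 0.47 on array 3.

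**Figure D4:**
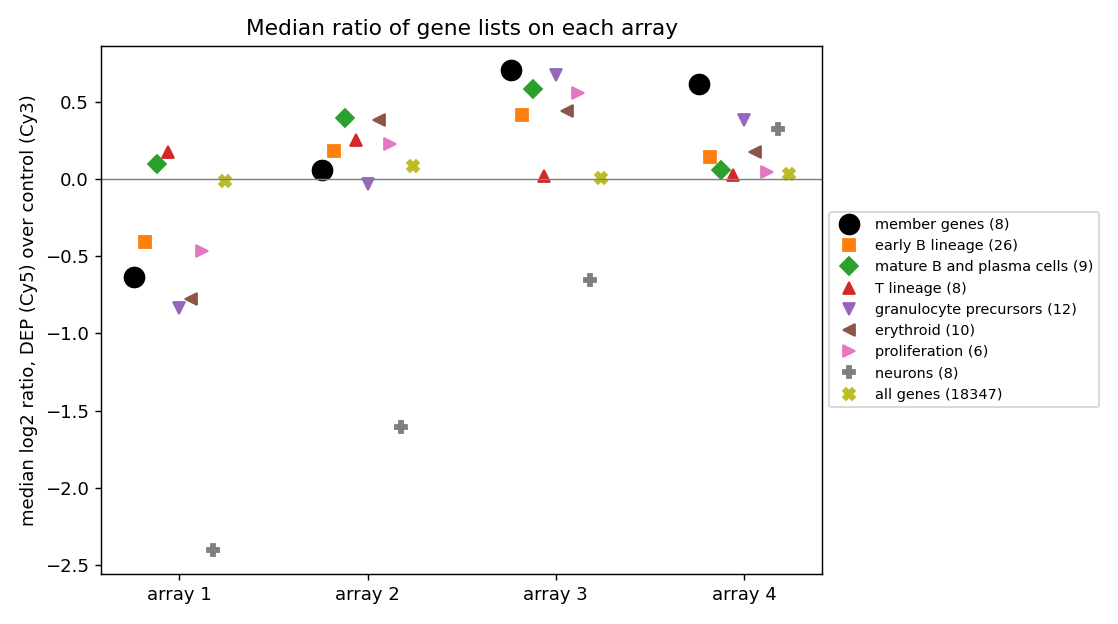
Median log2 ratio of Cy5 (labelled DEP) over Cy3 (labelled control) on each array, for the member genes (black) and other gene lists, over the genes measured in full, whose number is in brackets. The members lie at -0.63, 0.06, 0.70 and 0.61, and the granulocyte precursors at -0.84, -0.03, 0.67 and 0.38, while all genes stay near 0.

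The genes whose ratios were most like the members' median over the 4 arrays were sought among 14272 other named genes measured in full, by the root mean square difference of the log2 ratios. The nearest were Tmod4 (0.058), 2310002L09Rik (0.064), 3425401B19Rik (0.086), Itgb1bp2 (0.09) and Ifi209 (0.092). They are in none of the gene lists used here, so the order over the arrays was not confined to the listed B lineage and marrow genes. With 4 arrays the search is a description of these ratios. Among the members themselves the difference ran from 0.05 for Vpreb3 and 0.15 for Dntt to 0.80 for Rag1 and 0.83 for Pax5.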

How the data were processed

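Expression was measured in mouse middle ear extracts on 4 arrays of the 4x44K format, each read in both dyes and all from 1 slide and 1 scan, so no batch could be tested. Per the file headers, the authors' scanner output comes from Feature Extraction 10.10.1.1. The deposited intensities include processed ones that are background-subtracted, spatially detrended and dye-normalized within the array. The log10 ratio of Cy5 over Cy3 that the authors deposited was converted here to log2. Their separate table of log10 ratios held the same values within 0.005, with medians of -0.00589, 0.0186, 0.0099 and 0.0112 on arrays 1 to 4, and 0 columns lacked a sample. The labels list treatments of both groups under channel 1, and the source names were followed.

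Control spots, outlier flags (164 to 274 spots per array) and spots with a ratio of exactly 0, taken as having none (6179 to 8558 of 43020), were left out, and spots of a probe were averaged. No member spot was saturated. Probes were named through RefSeq accessions (GRCm38.p6 table, names for 27655 of 39429 probes, the others counted by accession). Each gene took its probe of highest mean log2 signal. With a ratio on at least 3 arrays, 31577 probes were tested against 0 in limma 3.58.1 (R 4.3.3; lmFit, eBayes, two-sided, Benjamini-Hochberg). A probe counted as well above background on an array where over 50% of its spots did. The fit was tested on simulated ratios. Figures were drawn with Python 3.11.15 and matplotlib 3.10.9.

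The members and gene lists were chosen with earlier results of these data known. All members are named. From the other lists, the genes named with a mean are among the 3 with the largest mean ratio among those measured in full, and further genes were chosen after their values were seen. Alternatives were normexp (offset 50, on median signals) with loess or median centring, filters on dim probes, flagged spots kept, no moderation, an intensity trend, the deposited table, the mean of a gene's probes, and each array left out (2 ratios sufficing). The number of arrays limits the precision. The qRT-PCR values were not analysed here, and single values of some listed genes are not reported here.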

Additional observations from a re-analysis of the deposited data

Results flagged for a closer look

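Of 36 values tested over the 4 arrays (the ratio and both centred levels of the 12 member probes), 4 had 1 array farther from the others than 4 samples allow at the 95% level, where chance alone flags about 5% of such values. The level of the brightest probe for Rag1 in the channel labelled DEP on array 1 was -2.18 relative to the median probe, against -0.74 to -0.49 for arrays 2 to 4. Its level in the channel labelled control was -2.84 on array 3 and between -1.56 and -1.30 elsewhere. The log2 ratio of the second probe for Rag1 was -0.94 on array 1, against 0.71 to 0.88 for the rest, and for the second probe of Pax5 it was -0.53 there, against 0.88 to 1.04. These second probes lay at background in at least 1 channel of each array.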

How the results depend on the processing

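The number of member genes at an adjusted p under 0.05 was 0 under every alternative run. With normexp and median centring 2988 of 25694 genes had one in limma's test, and 2784 of these had a mean ratio above 0. The median over the members stayed above 0 under each alternative, from 0.15 with normexp and loess to 0.38 with median centring. It ran from 0.05 to 0.45 with 1 array left out. The number past 2-fold higher lay between 0 and 2 when single arrays were dropped, being 2 without array 1. The number with an unadjusted p under 0.05, 1, was 0 with normexp and loess, without moderation, with an intensity trend and with the mean of a gene's probes, and lay between 0 and 4 when single arrays were dropped, being 4 without array 1. With median centring it was still 1, but Vpreb3 in place of Pax5. There the sign turned for Vpreb1 (0.33) and for the second probes of Pax5 (-0.18) and Rag1 (-0.11), and with normexp and loess for the second probe of Rag2 (0.017). With 1 array left out, Vpreb1 ranged from -0.22 to 0.28, Ebf1 from -0.12 to 0.20 and the second probe of Rag2 from -0.28 to 0.10. The causes were not tested. Beyond the ratio within each array, which already pairs its extracts, no paired analysis was possible because the arrays form 1 group. The slide could not be used as a block, since there was 1. Signal over background limits Pax5, Rag2 and the second probes.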
